A study of Bos taurus with 27 samples.

Results

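Bovine blastocyst pools with much and little interferon tau mRNA were compared. Within the 27 pools of the series, the 9 with the highest abundance of IFNT3, the main interferon tau transcript here, formed the high IFNT3 group, and the 9 with the lowest abundance formed the low IFNT3 group. Together these were 18 of the 27 pools, and the 9 pools in between were left out of the comparison. The pools were chosen by their abundance of IFNT3 in CPM (counts scaled to a total of 1000000 per pool), so the interferon tau values are given as a description without a test, and IFNT3, IFNT2, IFN-TAU and IFN-tau-c1 were left out of the genes tested.

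Each pool combined RNA from 2 blastocysts at the expanding to expanded stage and of the best quality score, produced in vitro with semen of the same bull. The oocytes had been matured with fluid taken from preovulatory follicles of either greater or lesser maturity, and the embryos were then fertilized and cultured alike. Neither the follicle maturity treatment nor the IVF replicate was assigned to individual pools here, so their part in the differences was not tested. Some genes named below are among those the paper lists as differing between the treatments. It lists ARF5 as higher with fluid of greater maturity, and TKDP1, DHRS9 and DOCK11 as higher with fluid of lesser maturity. The sex of the embryos is not given in the sources used here. A pool mixes 2 embryos and all their cell lineages, so fewer cells of a type and less RNA per cell cannot be told apart.

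Interferon tau is the signal by which the ruminant conceptus announces pregnancy to its mother. It is a type I interferon that is secreted by the trophectoderm, the outer cell layer of the blastocyst that goes on to form the placenta, and it acts on the uterus so that the corpus luteum is kept. Its transcription in trophectoderm depends on ETS2 together with factors such as CDX2, GATA2, GATA3 and DLX3, while POU5F1, a factor of the inner cell mass, holds ETS2 activity back. Bovine interferon tau is encoded by several closely related genes that lie in the type I interferon cluster.

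In the ARS-UCD2.0 build, the 4 interferon tau genes of the table were located on chromosome 8. IFNT3 spanned positions 22582520 to 22583580, IFNT2 spanned 22608434 to 22609746, IFN-tau-c1 spanned 22633306 to 22633893 and IFN-TAU spanned 22813215 to 22813845. IFNT3 received 97.0% of the counts of these 4 genes over the 27 pools. Because the copies are nearly identical, the division of reads among them is uncertain.

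Abundance of IFNT3 was between 7.02 and 580 CPM, an 82.6-fold range among blastocysts of similar morphology. In the high IFNT3 pools the lowest value was 87.8 CPM, the median 116 CPM and the highest 580 CPM, from 1645 to 8427 counts per pool. In the low IFNT3 pools the lowest value was 7.02 CPM, the median 18.5 CPM and the highest 26.4 CPM, from 88 to 786 counts per pool. The mean of the high pools was 11.2 times that of the low pools, and the median 6.30 times. Pools 9 and 14 stood above the other high pools at 580 and 264 CPM, and the other 7 were between 87.8 and 192 CPM. At the edges of the groups the values ran on with little gap. The lowest high pool had 87.8 CPM and the highest middle pool 81.8 CPM, while the lowest middle pool had 27.1 CPM and the highest low pool 26.4 CPM.

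**Figure D1:**
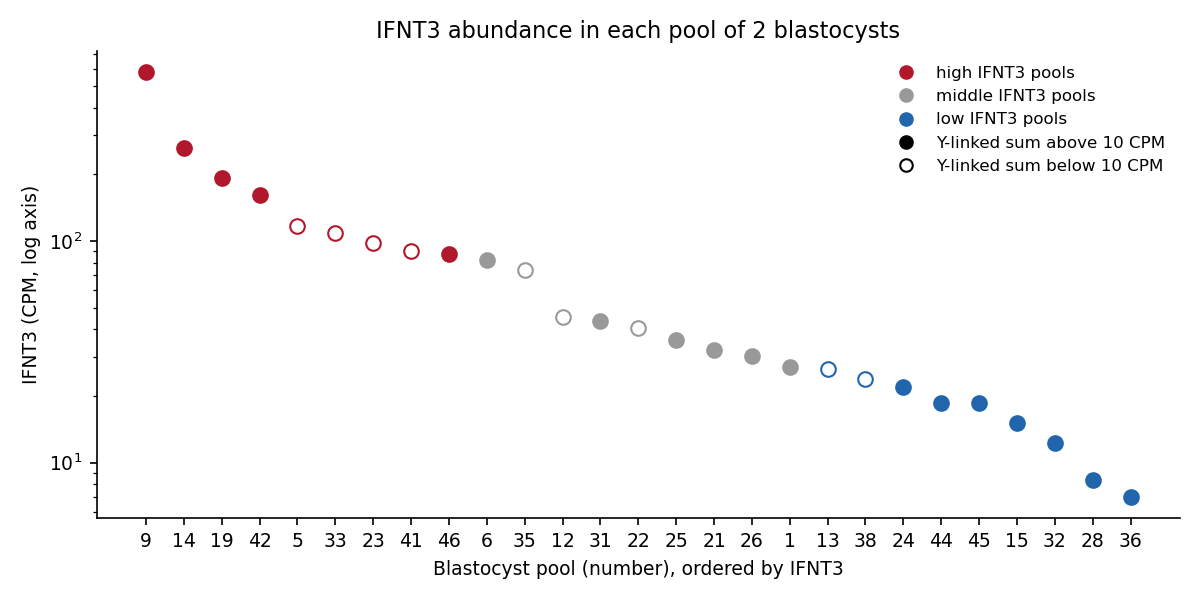
Abundance of IFNT3 in CPM on a log axis in each of the 27 pools, ordered from highest to lowest. Red, grey and blue points are the high, middle and low IFNT3 pools, and open points are pools with a summed abundance of Y-linked transcripts below 10 CPM. The points form a continuous slope from 580 to 7.02 CPM, with pool 9 apart at the top.

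The other interferon tau transcripts were scarce in both groups. IFNT2 had a median of 0.836 CPM in the high pools, between 0.0612 and 9.09 CPM, and a median of 0.324 CPM in the low pools, between 0 and 1.72 CPM. IFN-tau-c1 was between 0.796 and 7.30 CPM in the high pools and between 0 and 1.22 CPM in the low pools, where its median was 0. The high and low ranges overlapped for both transcripts. IFN-TAU had no count in 20 of the 27 pools and more than 3 counts in 1 pool. A count of 0 allows up to 3 counts, which was equal to between 0.0678 and 0.285 CPM depending on the pool, for counting error only.

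No difference in depth or library measures was detected between the groups. The total count was between 14526367 and 44253564 in the high pools and between 10517606 and 31126142 in the low pools. The means were 25859200 and 19240600, with a two-sided exact permutation p of 0.161, adjusted to 0.643 over the 4 measures compared. The number of genes detected, the share of counts in the 100 most counted genes and the share on mitochondrial genes had exact permutation p-values of 0.428, 0.712 and 0.956. Y-linked transcripts, summed over 5 genes, were between 18.9 and 197 CPM in 18 pools and at most 1.65 CPM in the other 9. Pools low in Y-linked transcripts numbered 4 of 9 in the high group, 3 of 9 in the middle and 2 of 9 in the low group.

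Of the 12308 genes tested, 2 had greater abundance in the high IFNT3 pools and 0 had greater abundance in the low pools, by edgeR's quasi-likelihood test with a Benjamini-Hochberg adjusted p of 0.05 or less. These calls were 0.0162% of the genes tested. Without adjustment, 840 genes (6.82%) reached a p of 0.05 or less and were higher in the high pools, and 657 (5.34%) were lower. At an adjusted p of 0.10 or less there were 69 genes (0.561%), 57 of them higher and 12 lower in the high pools. That number depended on single pools. It was 2 or 3 without any 1 of pools 9, 15, 24, 32, 36 and 44, between 9 and 35 without any 1 of pools 5, 19, 28, 33, 41 and 42, and between 120 and 166 without any 1 of pools 13, 14, 38 and 46. It was 3 with the abundance of Y-linked transcripts as a covariate, 6 without pools 9 and 14, the pools highest in IFNT3, 16 without the filter on low counts and 37 within the pools above 10 CPM of Y-linked transcripts. The genes given below at that limit rest on the comparison of the 9 high with the 9 low pools and are named for their values in it.

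The other tests called more genes. The Wald test of DESeq2 gave 144 higher genes (1.24% of the 11592 with an adjusted p) and 39 lower genes (0.336%). When IFNT3 was fitted as a continuous value over the 27 pools with edgeR, 187 genes rose with it (1.52%) and 90 fell (0.731%), and 126 genes were called by both, 100 higher and 26 lower. These 126 genes were 68.9% of the DESeq2 calls and 45.5% of those of the continuous fit, which share 18 pools. Genes below that did not pass edgeR's test of the 9 high against the 9 low pools are given as values.

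TMEM47, which encodes a membrane protein of epithelial cell junctions, was the gene of smallest p. TMEM47 is located on chromosome X from 108636215 to 108661213. Its abundance was lowest at 15.3, with a median of 27.4 and a highest value of 37.7 CPM in the high pools, and it was between 6.28 and 13.8 CPM in the low pools, with a median of 8.96 CPM. Each high pool therefore exceeded each low pool. The log2 fold change was 1.53 ± 0.19 (SE, n = 9 and 9), with an adjusted p of 0.00055 by edgeR's quasi-likelihood test. It stayed called without any 1 pool, where the log2 fold change was between 1.47 and 1.62.

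LOC112445660, a protein-coding locus on an unplaced scaffold for which the annotation has no name, was the other gene called. It was at 46.2 to 368 CPM in the high pools (median 73.8) and at 2.00 to 23.6 CPM in the low pools (median 9.98). The groups did not overlap, and pool 9 was highest for this gene as it was for IFNT3. The log2 fold change was 3.39 ± 0.43 (SE, n = 9 and 9), with an adjusted p of 0.00055 by edgeR's quasi-likelihood test, and it was 2.65 without pools 9 and 14. In the continuous fit LOC112445660 rose by 0.98 ± 0.06 (SE) on the log2 scale for each log2 unit of IFNT3. Its sequence was not compared with those of the interferon tau genes here, so reads shared with them were not tested.

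The 9 middle pools, which the comparison did not use, gave values of their own for both genes. TMEM47 was between 5.70 and 34.3 CPM there (median 15.4). LOC112445660 was between 15.8 and 67.3 CPM (median 30.2). Both medians lay between those of the high and low pools. Within the middle pools, log2 abundance of LOC112445660 correlated with that of IFNT3, with a Spearman rho of 0.85 (exact permutation p = 0.00607, adjusted over the 2 genes 0.0121) and a Pearson r of 0.82 (exact permutation p = 0.0082, adjusted 0.0164). For TMEM47 the Spearman rho was 0.70 (exact permutation p = 0.0433, adjusted 0.0433) and the Pearson r was 0.73 (exact permutation p = 0.0238, adjusted 0.0238). Leaving out the 2 pools farthest from the median of IFNT3 gave a Spearman rho of 0.71 and a Pearson r of 0.80 for LOC112445660. For TMEM47 these values without the 2 pools were 0.46 and 0.61. IFNT3 had also set which pools were in the middle, so these correlations are not independent of the ranking. The highest middle values of TMEM47, 34.3 and 31.3 CPM, were in pools 35 and 12. Y-linked transcripts were at 1.51 and 0.709 CPM in those pools. Pool 22, with 1.06 CPM of Y-linked transcripts, had 14.3 CPM of TMEM47. The part of embryo sex in these correlations was not tested.

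There were 6 genes (0.0487% of those tested) for which every high pool exceeded every low pool, and 0 genes (0.0%) for which every high pool was below. Besides TMEM47 and LOC112445660, these were GRHL3, IL36RN, MORN3 and LOC112445107. GRHL3, a transcription factor of epithelial barriers, was between 13.3 and 23.3 CPM in the high pools and between 2.47 and 11.1 CPM in the low pools. IL36RN, which encodes the antagonist of the interleukin-36 receptor, was between 13.0 and 86.0 CPM (median 16.5) in the high pools and between 1.36 and 10.3 CPM (median 7.83) in the low pools. MORN3 was between 4.47 and 34.5 CPM in the high pools and between 0.0647 and 3.80 CPM in the low pools. The adjusted p in edgeR's quasi-likelihood test was 0.082 for GRHL3, 0.0596 for IL36RN and MORN3, and 0.0968 for LOC112445107.

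Among the next genes in order of p was TUBB6, a beta-tubulin of the microtubules, which was higher in the high pools but had an adjusted p above 0.05. It was at 12.7 to 45.6 CPM in the high pools (median 28.4) and at 1.98 to 20.1 CPM in the low pools (median 8.74). The ranges overlapped, with 7 high pools above all low pools. The log2 fold change of TUBB6 was 1.60 ± 0.31 (SE), with an adjusted p of 0.0596 by edgeR's quasi-likelihood test. It passed the DESeq2 test and the continuous fit.

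**Figure D2:**
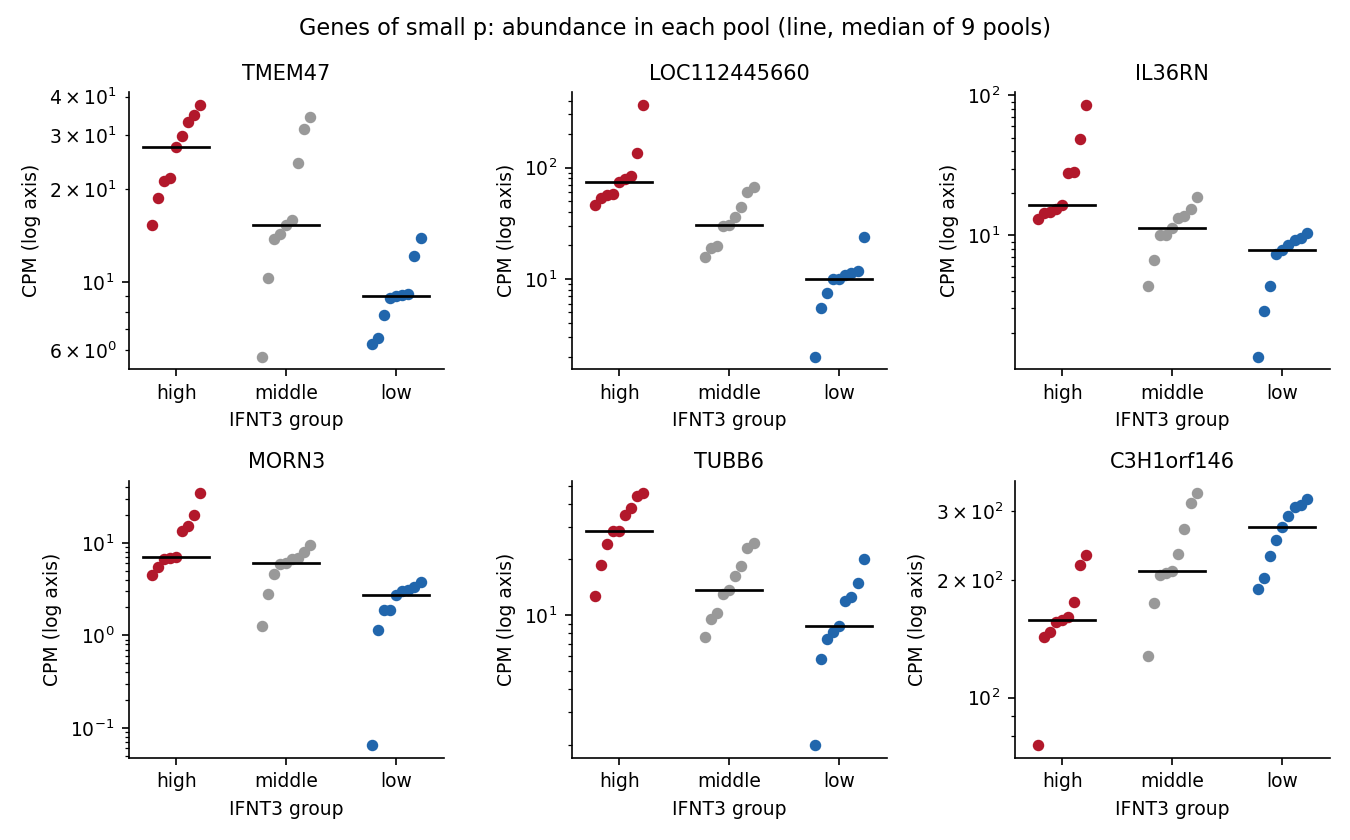
Abundance of 6 genes in CPM on a log axis, with a point for each pool and a line at the median of the 9 high, middle or low IFNT3 pools. TMEM47, LOC112445660, IL36RN and MORN3 have no overlap between high and low pools, TUBB6 overlaps, and C3H1orf146 has its lowest median in the high pools.

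In the opposite direction the differences were smaller. BRD8, a bromodomain subunit of a histone acetyltransferase complex, had medians of 36.5 CPM in the high and 60.4 CPM in the low pools. The medians of AMT, an enzyme of the glycine cleavage system, were 61.3 and 95.7 CPM, and those of GCSH, which carries the intermediate of the same system, were 499 and 848 CPM. C3H1orf146 had medians of 158 and 273 CPM, ARF5, a small GTPase of membrane traffic, of 56.1 and 85.0 CPM, and SPC24, a kinetochore component, of 166 and 236 CPM. The ranges of high and low pools overlapped for these 6 genes. Their log2 fold changes were between -0.71 for C3H1orf146 and -0.49 for SPC24, with adjusted p-values of 0.0811 for BRD8, 0.0824 for AMT, ARF5 and C3H1orf146, 0.0837 for SPC24 and 0.0919 for GCSH by edgeR's quasi-likelihood test. The continuous fit called each of them except ARF5.

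No difference was detected for genes that regulate interferon tau transcription. Among 24 such regulators, 22 were tested and 0 were called by edgeR, DESeq2 or the continuous fit. In edgeR's test 1 was lower at an unadjusted p of 0.05 or less, where the share over all genes was 5.34%. The log2 fold changes of the 22 had a median of 0.06, against -0.0044 over all genes tested. Of the 22, 13 were above 0, compared with 49.3% of all genes tested. ETS2, the main activator, had a median of 13.0 CPM in the high and 14.1 CPM in the low pools, with ranges that almost coincided. The log2 fold change of ETS2 was -0.16 ± 0.24 (SE). GATA2 had medians of 63.6 and 68.4 CPM and a log2 fold change of -0.15 ± 0.22. DLX3 had medians of 7.50 and 5.02 CPM, and its log2 fold change was 0.50 ± 0.26 with an adjusted p of 0.453 by edgeR's quasi-likelihood test.

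POU5F1 was the regulator at an unadjusted p of 0.05 or less, and it was lower where IFNT3 was high. It was at 234 to 427 CPM in the high pools (median 303) and at 282 to 753 CPM in the low pools (median 524). The ranges overlapped. Its log2 fold change was -0.52 ± 0.17 (SE) and its adjusted p was 0.204 by edgeR's quasi-likelihood test.

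Markers of the trophectoderm, the source of interferon tau, were abundant in both groups, with overlapping sums. Of the 10 markers, which include keratins and transcription factors, 10 were tested and 0 were called by any of the 3 tests, with 0 at an unadjusted p of 0.05 or less. Their summed abundance was between 24631 and 39009 CPM in the high pools and between 19637 and 36836 CPM in the low pools. Most of that sum was keratin transcripts. In the high pools KRT8 and KRT18 had means of 18791 and 7774 CPM, and the mean sum was 29423 CPM. The median log2 fold change of the 10 markers, which weighs each alike, was 0.06. GATA3 had medians of 132 and 134 CPM and a log2 fold change of 0.01 ± 0.15, TFAP2C had medians of 221 and 203 CPM and a log2 fold change of 0.06 ± 0.13, and CDX2 had medians of 3.90 and 3.22 CPM and a log2 fold change of 0.16 ± 0.28. For GATA3 and TFAP2C the sign depended on the pools and on the ranking. EOMES did not reach the abundance needed for testing, with a median of 0.0940 CPM in the high and 0.0643 CPM in the low pools.

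Markers of the inner lineages had medians below that of all genes tested, of which 6245 of 12308 were below 0. Of the 8 epiblast markers tested, 5 were below 0, a share near that of all genes, with a median log2 fold change of -0.33. Of the 9 hypoblast markers tested, 8 were below 0 with a median of -0.29. In each list an unadjusted p of 0.05 or less was found for 2 genes, both with lower abundance in the high pools. The share of lower genes at that limit over all genes tested was 5.34%. In both lists 0 were called by edgeR, DESeq2 or the continuous fit. In the epiblast list these were POU5F1 and PRDM14, a pluripotency factor with a mean of 20.3 ± 5.42 CPM in the high and 27.9 ± 6.56 CPM in the low pools (SD, n = 9). In the hypoblast list they were PDGFRA, a growth factor receptor with means of 29.3 ± 10.6 and 44.2 ± 9.19 CPM, and FN1, the matrix protein fibronectin, with means of 647 ± 176 and 833 ± 198 CPM.

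Placental products of the trophoblast stood among the lists with the highest median. Of 34 listed trophoblast Kunitz domain proteins, pregnancy-associated glycoproteins and related secreted proteins, 5 were abundant enough to test. Another locus that the paper annotates as trophoblast Kunitz domain protein 1 was not among these 5. The log2 fold changes of the 5 had a median of 0.92 with 5 above 0. The share above 0 over all genes tested was 49.3%. None of the 5 was called by edgeR or DESeq2. In edgeR's test 2 were higher at an unadjusted p of 0.05 or less, against 6.82% of all genes. The continuous fit called 1, higher, against 1.52% of all genes. That gene was TKDP1, a secreted protease inhibitor of the early conceptus. TKDP1 was between 9.56 and 328 CPM (median 92.8) in the high pools and between 3.71 and 84.6 CPM (median 9.87) in the low pools. The ranges overlapped, and the middle median of 9.18 CPM was close to that of the low pools. Its log2 fold change was 2.17 ± 0.65 (SE), with an adjusted p of 0.17 by edgeR's quasi-likelihood test. PAG2, a pregnancy-associated glycoprotein, had means of 201 ± 121 CPM in the high and 98.5 ± 47.2 CPM in the low pools (SD).

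Of the steroid synthesis genes in the list of trophoblast maturation, CYP11A1 and HSD3B1 had an unadjusted p of 0.05 or less. CYP11A1, which starts steroid synthesis from cholesterol, was at 5.98 to 39.7 CPM in the high pools (median 27.5) and at 4.28 to 26.6 CPM in the low pools (median 11.1). HSD3B1, which makes progesterone, was between 47.0 and 517 CPM (median 199) in the high pools and between 19.9 and 381 CPM (median 53.8) in the low pools. The ranges overlapped for both. The continuous fit called both genes, and DESeq2 called CYP11A1. The shares of higher calls over all genes in these tests were 1.52% and 1.24%. STAR, which brings cholesterol into mitochondria, had a log2 fold change of 0.03 ± 0.19 (SE), and CYP19A1, which makes estrogen, one of 0.59 ± 0.67. The 17 trophoblast maturation genes tested had a median log2 fold change of 0.34 with 12 above 0, but they did not share a direction, since HAND1, a transcription factor of trophoblast, had means of 0.907 ± 0.842 CPM in the high and 3.80 ± 5.44 CPM in the low pools, and GCM1, another, had means of 7.17 ± 1.90 and 11.6 ± 4.13 CPM (SD). By edgeR's quasi-likelihood test 0 of the 17 were called, with 3 higher and 2 lower at an unadjusted p of 0.05 or less.

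**Figure D3:**
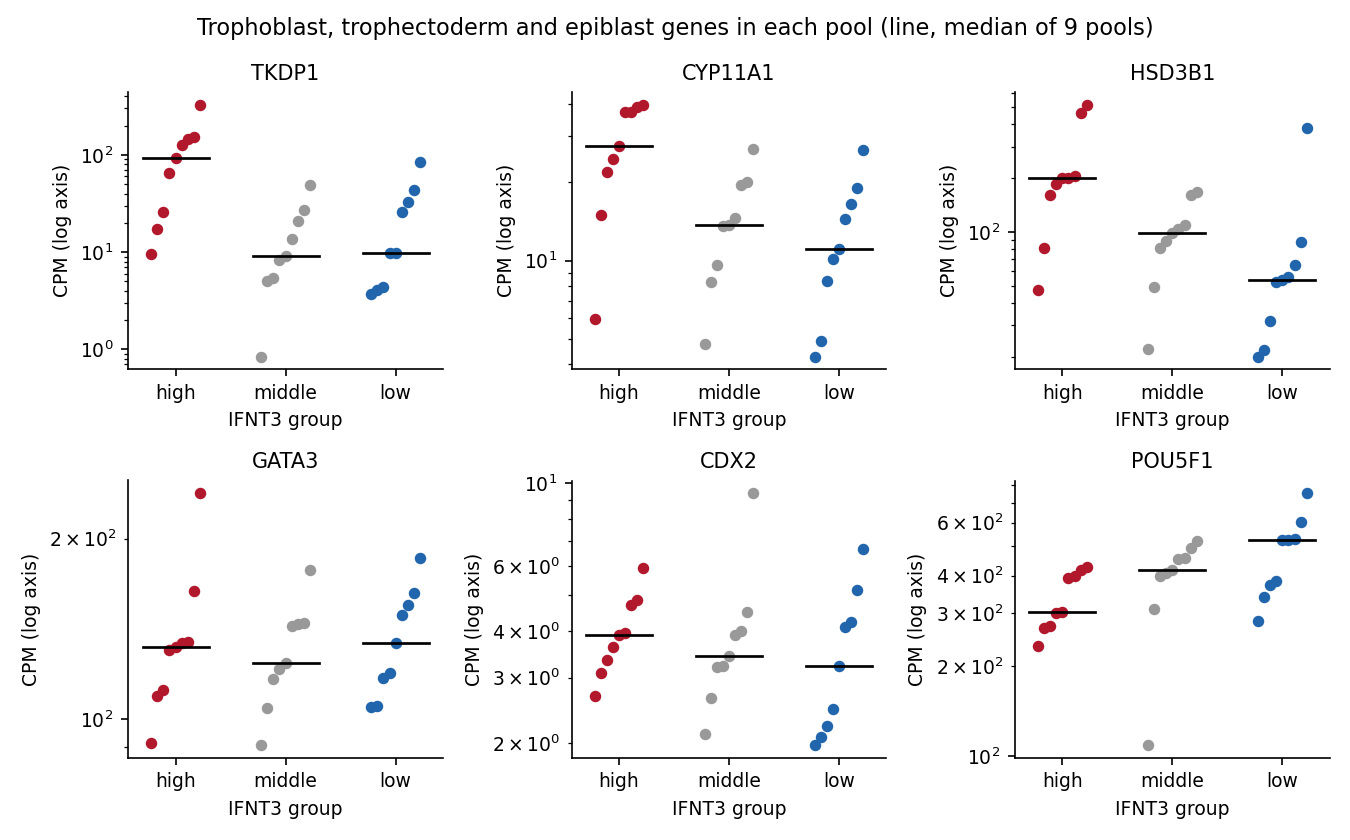
Abundance in CPM on a log axis of 3 trophoblast product genes (TKDP1, CYP11A1, HSD3B1), 2 trophectoderm factors (GATA3, CDX2) and the epiblast factor POU5F1, with a point for each pool and a line at the median of the 9 high, middle or low IFNT3 pools. The high and low points overlap in every panel, with high medians above low medians for the trophoblast products and below for POU5F1.

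Prostaglandin synthesis, which elongating conceptuses use alongside interferon tau, was represented by 13 tested genes with a median log2 fold change of 0.31. By edgeR's quasi-likelihood test 0 were called, as by DESeq2 and the continuous fit. At an unadjusted p of 0.05 or less 1 was higher in edgeR's test, where the share over all genes was 6.82%. PTGS2, the inducible cyclooxygenase, had a median of 1196 CPM in the high and 956 CPM in the low pools, with overlapping ranges and a log2 fold change of 0.27 ± 0.19 (SE). PPARG, a nuclear receptor for lipid ligands, was too scarce to test, with medians of 0.334 and 0.436 CPM.

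Interferon-stimulated genes, which type I interferons induce in responding cells, were measured in the same embryos that made the transcript. Of 50 such genes, 28 were tested, 19 were above 0 and their median log2 fold change was 0.32. In edgeR's test 0 were called, with 4 higher and 1 lower at an unadjusted p of 0.05 or less. Among all genes, 49.3% were above 0, and 6.82% were higher and 5.34% lower by that limit. DESeq2 called 1 of the 28 and the continuous fit called 2, each higher, against 1.24% and 1.52% of all genes. MX1, an antiviral GTPase, was at 0.587 to 16.9 CPM in the high pools (median 3.26) and at 0.538 to 4.25 CPM in the low pools (median 0.856). The ranges overlapped, with 2 high pools above every low pool. MX1 had a log2 fold change of 1.73 ± 0.57 (SE), with an adjusted p of 0.215 in edgeR's quasi-likelihood test of the groups and 0.00163 in the continuous fit. IFI6 was called by DESeq2, with means of 9.28 ± 8.81 and 2.94 ± 1.36 CPM (SD), and IRF7, a transcription factor that amplifies interferon responses, was called by the continuous fit, with means of 47.0 ± 15.2 and 30.6 ± 9.996 CPM. HERC5 went the other way, with means of 18.4 ± 4.99 and 26.99 ± 9.60 CPM. The 10 receptor and JAK-STAT genes tested had a median log2 fold change of 0.13, and 0 were called by any of the 3 tests.

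Single genes with known roles in immune signalling, picked after their values were seen, are given here as values. CXCL16, a chemokine, had a median of 28.9 CPM in the high pools, between 8.76 and 137 CPM, and of 5.42 CPM in the low pools, between 2.90 and 15.1 CPM. TNFSF9, a ligand that costimulates T cells, had medians of 14.6 and 3.68 CPM, and TNFRSF12A, the receptor of the cytokine TWEAK, had medians of 68.3 and 35.3 CPM. The ranges overlapped for the 3 genes. Adjusted p-values in edgeR's quasi-likelihood test were 0.0596 for CXCL16 and TNFRSF12A and 0.0713 for TNFSF9. IRF5 and NMI, both tied to interferon responses, had medians of 38.2 and 22.0 CPM and of 14.7 and 8.56 CPM, with adjusted p-values of 0.107 and 0.14. UBD, a ubiquitin-like protein induced by cytokines, had medians of 23.6 and 13.7 CPM, with an adjusted p of 0.138 by the same test, and pool 9 held 157 CPM of it.

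The part of leukocyte markers in these values was not tested. Of the 8 markers, 7 were tested and 7 had log2 fold changes above 0, with a median of 0.49. The share above 0 over all genes tested was 49.3%. In edgeR's test 0 were called and 1, AIF1, was higher at an unadjusted p of 0.05 or less, against 6.82% of all genes. DESeq2 called AIF1, against 1.24% of all genes called higher. AIF1 was between 4.36 and 18.6 CPM in the high pools and between 1.73 and 6.75 CPM in the low pools. The summed markers were between 17.8 and 81.9 CPM (median 46.6) in the high pools and between 20.9 and 47.4 CPM (median 26.9) in the low pools. PTPRC, the common leukocyte antigen, was present in both groups at means of 3.44 ± 1.96 and 2.64 ± 0.749 CPM (SD). The 5 tested cumulus and granulosa markers had a median log2 fold change of 0.24 and the 7 tested oocyte transcripts a median of -0.11, with 0 called in either list by any of the 3 tests.

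Most stress response genes had log2 fold changes above 0. Of 35 tested, 28 had log2 fold changes above 0, compared with 49.3% of all genes tested, and the median was 0.27. Of these, 9 reached an unadjusted p of 0.05 or less, with higher abundance in the high pools, where the share over all genes was 6.82%. By edgeR 0 were called, while DESeq2 called 2 and the continuous fit called 4, where the shares of higher calls over all genes were 1.24% and 1.52%. SOD1, which removes superoxide, was at 313 to 965 CPM in the high pools (median 543) and at 191 to 401 CPM in the low pools (median 258). CDKN1A, the inhibitor of cyclin-dependent kinases induced by p53, was between 15.2 and 25.7 CPM (median 21.5) in the high pools and between 4.72 and 17.2 CPM (median 8.42) in the low pools. The ranges of each overlapped. The adjusted p by edgeR's quasi-likelihood test was 0.0596 for SOD1 and 0.0811 for CDKN1A, and these 2 genes were the DESeq2 calls. Of the 19 apoptosis genes tested, 14 were above 0, compared with 49.3% of all genes tested, and the median was 0.19. In edgeR's test 5 reached an unadjusted p of 0.05 or less, each higher in the high pools, against 6.82% of all genes. DESeq2 called 1 and the continuous fit called 2, each higher, against 1.24% and 1.52% of all genes. CASP8, an initiator caspase, had means of 3.26 ± 2.36 and 0.594 ± 0.616 CPM (SD), and an adjusted p of 0.0919 by edgeR's quasi-likelihood test.

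Most genes of mitosis and DNA replication had log2 fold changes below 0. Of 38 tested, 33 had log2 fold changes below 0, against 6245 of the 12308 genes tested, with a median of -0.15. In edgeR's test 0 were called, with 8 lower and 2 higher at an unadjusted p of 0.05 or less, where the shares over all genes were 5.34% and 6.82%. DESeq2 called 2 and the continuous fit called 2, each lower, where the shares of lower calls over all genes were 0.336% and 0.731%. MCM6, a subunit of the replicative helicase, was at 136 to 177 CPM in the high pools (median 149) and at 160 to 261 CPM in the low pools (median 189). Its log2 fold change was -0.37 ± 0.09 (SE), with an adjusted p of 0.107 by edgeR's quasi-likelihood test. MCM3 of the same helicase had means of 29.1 ± 5.23 and 40.7 ± 8.02 CPM (SD), and BRCA1, which acts in DNA repair, had medians of 53.8 and 77.4 CPM.

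Metabolic genes showed single members with differences, and lists near the median of all genes. Of the 28 genes of fatty acid uptake and lipid droplets tested, the median log2 fold change was -0.04. FABP5, which carries fatty acids in the cell, was between 434 and 1634 CPM (median 626) in the high pools and between 80.3 and 511 CPM (median 226) in the low pools, with an adjusted p of 0.0824 by edgeR's quasi-likelihood test. The beta-oxidation genes HADHA and HADHB had lower means in the high pools, at 23.8 ± 5.77 against 34.8 ± 7.44 CPM and 69.5 ± 7.95 against 87.4 ± 18.04 CPM (SD). The 25 genes of glycolysis and the pentose phosphate pathway had a median log2 fold change of -0.03, and the 23 genes of cholesterol synthesis one of 0.10. Within the former, the continuous fit called 2 higher, PFKP and LDHA, and 4 lower, TKT, PGD, PGAM1 and SLC2A1. The shares of calls over all genes in that fit were 1.52% higher and 0.731% lower. In edgeR's test 3 of the 25 were higher and 5 lower at an unadjusted p of 0.05 or less, against 6.82% and 5.34% of all genes. In these 3 lists 0 genes were called by edgeR in the groups. DESeq2 called 1 gene in each of the 3, which were FABP5, PFKP and NSDHL, a sterol dehydrogenase encoded on chromosome X. Each was higher in the high pools, where the share of higher DESeq2 calls over all genes was 1.24%.

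The remaining lists were close to all genes tested. The median log2 fold change was 0.03 over 13 genes of FGF and MAPK signalling, 0.07 over 21 genes of cavity fluid transport and junctions, -0.12 over 19 genes of DNA methylation and chromatin, and 0.02 over 12 imprinted genes. In these 4 lists 0 genes were called by any of the 3 tests, and between 0 and 2 had an unadjusted p of 0.05 or less. Over all genes tested, 6.82% were higher and 5.34% lower at that limit.

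**Figure D4:**
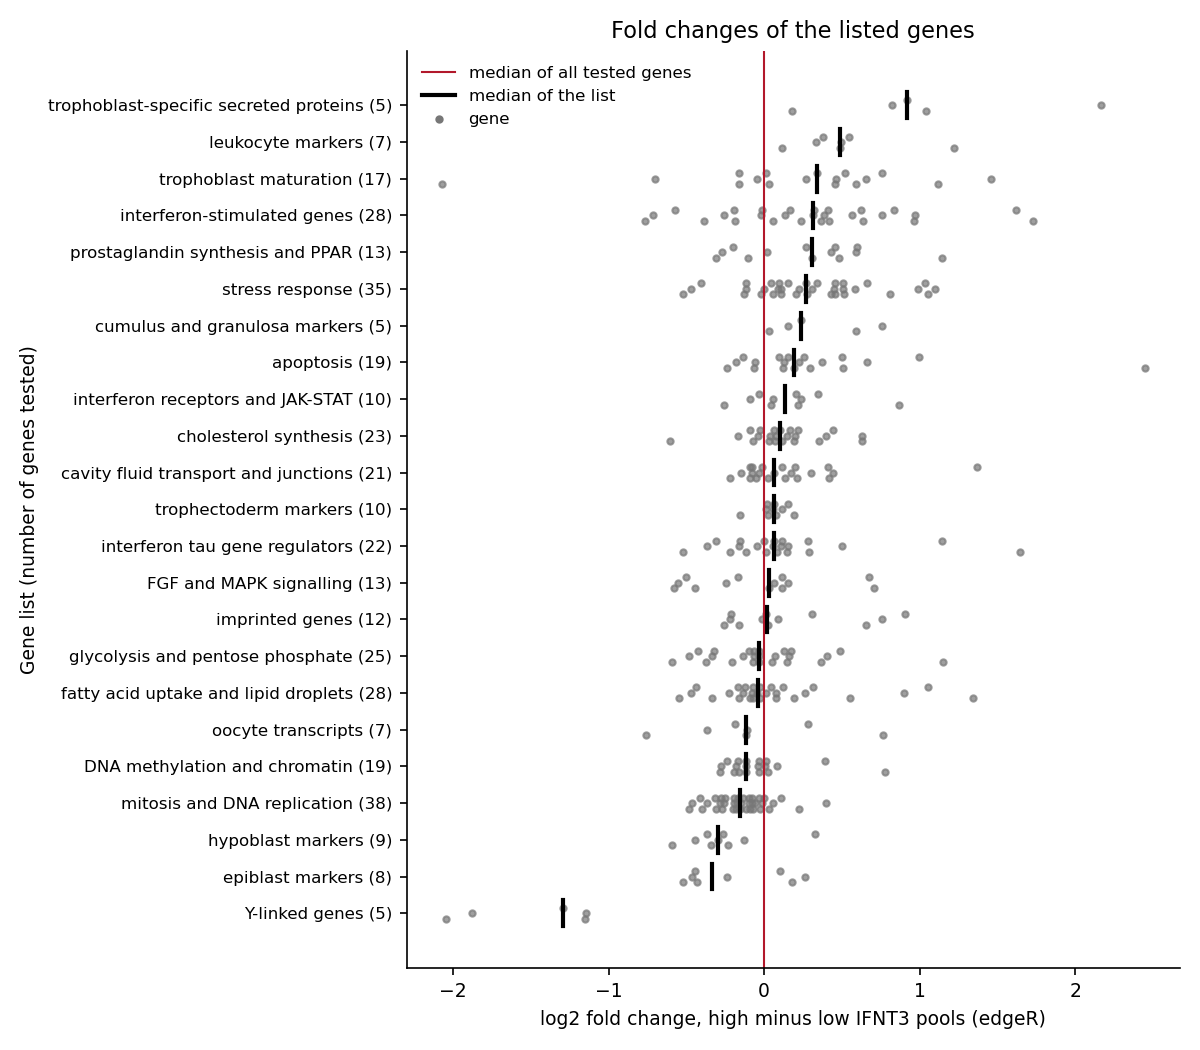
log2 fold changes (high minus low IFNT3 pools, edgeR) of each tested gene in 23 gene lists, with grey points for genes, black lines for the median of a list and a red line for the median of the 12308 genes tested. Trophoblast-specific secreted proteins have the highest median at 0.92, Y-linked genes the lowest at -1.29, and trophectoderm markers lie near the red line at 0.06.

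Other genes at an adjusted p of 0.10 or less, named after their values were seen, had varied roles. ANXA1, a membrane-binding annexin, had medians of 1488 CPM in the high and 872 CPM in the low pools, and S100A11, a calcium-binding partner of annexins, had medians of 167 and 57.9 CPM. CLDN23 and CLDN1, claudins of tight junctions, had medians of 48.5 and 22.7 CPM and of 5.17 and 1.86 CPM. FHL2, a LIM domain cofactor, had medians of 81.9 and 22.7 CPM, UCHL1, a ubiquitin hydrolase, of 16.3 and 7.04 CPM, and IGFBP6, which binds insulin-like growth factors, of 7.00 and 2.27 CPM. The high and low ranges overlapped for each of these 7 genes. Their adjusted p-values were between 0.0783 for UCHL1 and 0.0941 for IGFBP6 by edgeR's quasi-likelihood test. Just beyond that limit were ALDH1A3 and DHRS9, enzymes of retinoic acid synthesis, with medians of 62.1 and 20.4 CPM and of 21.9 and 6.60 CPM, each at an adjusted p of 0.107.

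Most X-linked genes had higher abundance in the high IFNT3 pools. Of the 446 genes tested on chromosome X, 387 (86.8%) had a log2 fold change above 0, with a median of 0.40, compared with a median of -0.01 over the 11745 autosomal genes. An unadjusted p of 0.05 or less with higher abundance in the high pools was found for 140 X-linked genes (31.4%), and with lower abundance for 1, while the share of higher genes over all genes tested was 6.82%. Of the 69 genes at an adjusted p of 0.10 or less, which were 0.561% of all genes tested, 11 were X-linked and 56 autosomal. The continuous fit called 34 of the 446 X-linked genes, all 34 higher, where the share of higher calls over all genes was 1.52%. Chromosome X was examined as a group after its genes were seen among those of smallest p.

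**Figure D5:**
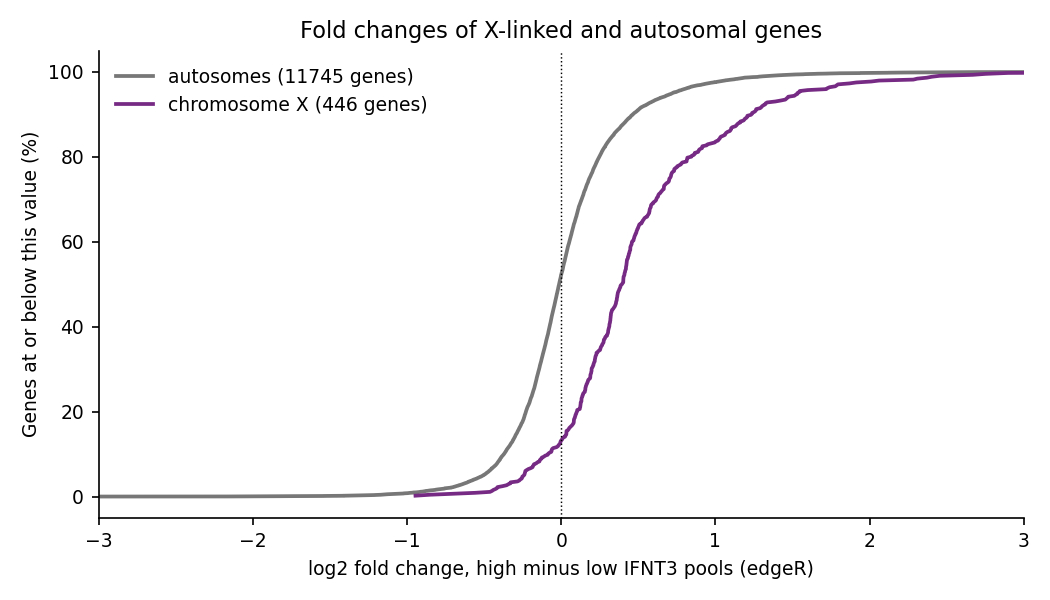
Cumulative share of genes in percent against the log2 fold change between high and low IFNT3 pools (edgeR), for 446 X-linked genes in purple and 11745 autosomal genes in grey. Values beyond the ends of the axis are not drawn. The purple curve lies to the right of the grey one, with medians of 0.40 and -0.01.

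PAK3, a kinase of the cytoskeleton, was the X-linked gene with the largest ratio among those named. It was at 0.125 to 7.71 CPM in the high pools (median 1.69) and at 0 to 0.570 CPM in the low pools (median 0.0644). That low median lay below the abundance equal to 3 counts in the low pools, 0.0964 to 0.285 CPM, so the ratio is uncertain. DESeq2 gave PAK3 no adjusted p. BEX4 and BEX5, small proteins of the brain-expressed X-linked family, had medians of 22.6 and 4.74 CPM and of 34.1 and 12.7 CPM. MCTS1, which acts in translation reinitiation, had medians of 43.7 and 27.9 CPM, UTP14A, which acts in ribosome assembly, of 73.4 and 43.5 CPM, and TAF1, a subunit of the general transcription factor TFIID, of 15.9 and 9.36 CPM. For these 6 genes the ranges overlapped, and adjusted p-values in edgeR's quasi-likelihood test were between 0.0596 for PAK3 and 0.0968 for BEX4.

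Transcripts that differ between the sexes were examined beside the X-linked genes. XIST, the RNA that silences an X chromosome in female cells, was between 2.68 and 35.4 CPM (median 18.05) in the high pools and between 0.0484 and 20.4 CPM (median 1.42) in the low pools. The ranges overlapped, and the log2 fold change of XIST was 1.23 ± 0.69 (SE) with an adjusted p of 0.493 by edgeR's quasi-likelihood test. The 5 Y-linked genes tested had log2 fold changes with a median of -1.29 and 0 above 0, and 0 were called by any of the 3 tests. In edgeR's test 2 were lower at an unadjusted p of 0.05 or less, where the share over all genes was 5.34%. The summed abundance of the 5 genes was at 0.610 to 52.1 CPM in the high pools (median 18.9). In the low pools it was at 0.430 to 112 CPM (median 53.4).

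The X-linked difference was measured again with the Y-linked transcripts taken into account. XIST did not enter either fit. With the abundance of Y-linked transcripts as a covariate, the median log2 fold change of the 446 X-linked genes was 0.23. Within the pools above 10 CPM of Y-linked transcripts, which were 5 high and 7 low pools, it was 0.42, against -0.01 for autosomal genes. A pool of 2 embryos above that limit can hold 1 or 2 male embryos, which was not separated here. Among the pools above the limit, XIST was between 2.68 and 18.05 CPM in the high pools. In the low pools it was between 0.0484 and 1.42 CPM in pools 15, 24, 28, 32 and 36. It was 19.6 CPM in low pool 44 and 18.6 CPM in low pool 45. The part of embryo sex in the X-linked difference within these pools was not tested. TMEM47 and LOC112445660 were called in both fits. With the covariate 3 genes were called, the other being IL36RN with a log2 fold change of 2.33 and an adjusted p of 0.0285 by edgeR's quasi-likelihood test, and within the pools above 10 CPM there were 11 calls, each higher in the high pools.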

How the data were processed

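The authors copied mRNA from its poly(A) tail (SMART-Seq v4), trimmed the forward reads (fastp), aligned them with STAR against build ARS-UCD2.0 and assigned them to genes (featureCounts). Tool versions and the annotation release are not given in the sources used here. The authors deposited raw counts of 32637 genes, with no normalization. The counts are reads without molecular identifiers. Gene positions were matched by symbol to RefSeq for 12264 of the 12308 genes tested, on the same build.

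CPM used the total count of each pool, and pools were ranked by IFNT3 CPM. Of 12310 genes with at least 1 CPM in 12 pools, the 2 interferon tau genes retained were left out, leaving 12308. High and low pools were compared with edgeR 4.0.16 (TMM, quasi-likelihood test, no covariate, Benjamini-Hochberg adjustment) in R 4.3.3, and DESeq2 1.42.0 was an alternative. An adjusted p that DESeq2 gave as missing was kept missing. Scripts were tested on simulated data. P-values and SE measure the spread between pools, which nothing in the labels identifies as independent cultures. By the paper's methods the pools came from fewer IVF replicates than there were pools, so some pools shared a replicate. The fits treated each pool as a separate unit and did not account for that. Library measures were compared by exact permutation with scipy 1.17.1.

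The pools, gene lists and tests were chosen with earlier results of these data known. Genes named were the called genes, the 5 of smallest p in each direction where fewer than 5 were called, called members of the lists, and ETS2, CDX2, GATA2, GATA3, DLX3, TFAP2C, EOMES, POU5F1, TKDP1, PTGS2, PPARG and XIST. The other genes were named after their values were seen. An item that the rule names is not reported here.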

Additional observations from a re-analysis of the deposited data

Results flagged for a closer look

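In 128 sets of 9 values, each the abundance of 1 named gene or 1 measure of the libraries in the high or the low IFNT3 pools, 21 held a highest value far from the others by Dixon's test at the 95% level. For values that follow a normal distribution, chance flags about 1 in 20 such sets. The abundances were taken in CPM and not on a log scale, so that rate need not hold here. The sets are not independent, because they share pools. Of the 21 values, 11 were in pool 9, the pool highest in IFNT3, and 5 in pool 13, the highest of the low pools. IFNT3 itself chose the pools, so its own flag is a description. Many of the other genes were named for their difference between these groups, so their flags in pool 9 are a description too.

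In pool 9 these were IFNT3 at 580 CPM, IFNT2 at 9.09 CPM, LOC112445660 at 368 CPM, IL36RN at 86.0 CPM and TKDP1 at 328 CPM. They were also CXCL16 at 137 CPM, TNFSF9 at 44.0 CPM, SOD1 at 965 CPM, FABP5 at 1634 CPM, ANXA1 at 3146 CPM and UBD at 157 CPM. The next highest of the high pools had 264 CPM of IFNT3, 135 CPM of LOC112445660, 33.1 CPM of CXCL16 and 34.8 CPM of UBD.

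In pool 13 they were LOC112445660 at 23.6 CPM, TKDP1 at 84.6 CPM, TNFSF9 at 9.88 CPM, DHRS9 at 25.3 CPM and DOCK11 at 32.1 CPM. Pool 13 was the low pool nearest to the middle pools in IFNT3.

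The other 5 values were each in a different pool. GATA3 was at 238 CPM in pool 14, EOMES at 2.05 CPM in pool 5 and IFN-TAU at 0.435 CPM in pool 42, all of the high group. HSD3B1 was at 381 CPM in pool 38 and BRCA1 at 142 CPM in pool 32, both of the low group.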

How the results depend on the processing

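TMEM47 and LOC112445660 stayed called, in the same direction, under each alternative run. The number of genes called, 2 higher and 0 lower, did not stay. It was 183 with DESeq2 (144 higher, 39 lower), 277 with IFNT3 continuous over 27 pools (187 higher, 90 lower), 16 with 13 pools a side (15 higher, 1 lower), 28 with 6 pools a side (28 higher), 16 with pools ranked on the sum of the 4 interferon tau genes (16 higher) and 15 with total count as a covariate (15 higher). It was 11 within the pools above 10 CPM of Y-linked transcripts (11 higher) and 69 at an adjusted p of 0.10 (57 higher, 12 lower), both chosen after seeing the data. Leaving out each pool in turn gave between 2 and 17 calls, with between 2 and 17 higher and between 0 and 3 lower. It was 5 without pool 14, 23 or 28, 10 without pool 5, 15 without pool 13 and 17 without pool 38 or 46. The cause was not tested. Without pools 9 and 14, a choice made after seeing the data, 2 were called.

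Over the named genes, 1524 comparisons with an alternative kept direction and side of the threshold, 158 became called and 12 reversed. GATA3 was -0.0425 with 6 pools a side, -0.0116 with pools ranked on the sum, -0.0720 without pools 9 and 14, and between -0.12 and 0.0652 with each pool left out in turn. TFAP2C was -0.0125 with 13 pools a side, -0.0090 with 6 pools a side and -0.0014 in the continuous fit. The mitochondrial share, -0.0043 percentage points between groups, was 0.0164 with 13 pools a side and 0.0013 as a log2 difference. No paired analysis was possible because the labels give the pools no shared replicate numbers. Each group holds 9 pools of 2 embryos, with 88 IFNT3 counts in the least covered pool, and neither sex, treatment nor IVF replicate of a pool was assigned here.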
